A study of Mus musculus with 38 samples.

Results

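The cluster of imprinted genes on distal mouse chromosome 7, with Igf2 and H19 at its centromeric end and Cdkn1c, Slc22a18 and Phlda2 at its telomeric end, was followed across the RNA libraries of a study of MEK and GSK3 inhibition in mouse embryonic stem cells. Members were taken by gene symbol from the deposited table of gene levels. The list held 9 genes, and 8 of them had values among the 25965 genes of the table (Igf2, H19, Ascl2, Cd81, Tssc4, Cdkn1c, Slc22a18 and Phlda2). Kcnq1ot1, the long antisense RNA of the cluster, was not analysed here. The 8 genes lie between positions 142575529 and 143502541 of chromosome 7 (GRCm38), a span of 927013 bases.

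Poly(A) RNA came from E14 cells, an XY embryonic stem cell line grown on gelatin with no feeder cells. All cells were plated in serum medium with leukaemia inhibitory factor (LIF) and moved a day later into 1 of 4 media, all of which contained LIF. The 2i/L group received serum-free N2B27 medium with 1 µM of a MEK inhibitor (written PD03259010 in the labels) and 3 µM of the GSK3 inhibitor CHIR99021, the MEKi/L group the same medium with the MEK inhibitor alone, and the GSK3i/L group the same medium with CHIR99021 alone. The S/L group stayed in medium with fetal bovine serum and no inhibitor. At 8 days there were 3 libraries of each group, and 2 more of GSK3i/L were made at 24 days (replicates 2 and 3), 14 libraries in all. No group had N2B27 medium without inhibitor, so in each comparison with S/L the inhibitor and the loss of serum cannot be told apart. The labels call the samples biological replicates without naming separate cultures, so the p-values cover the spread among these samples and nothing wider. Whole-genome bisulfite values of the same study were not analysed here. The table gives total RNA of each gene and does not separate the maternal and paternal copies, so nothing below measures imprinting itself.

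Imprinted genes are transcribed mainly from the copy inherited from a single parent. In the mouse, Igf2 is transcribed mainly from the paternal copy and H19 from the maternal copy, under a shared control region that binds the insulator protein CTCF where it is unmethylated. Farther along the chromosome, the paternal Kcnq1ot1 RNA keeps Cdkn1c, Slc22a18, Phlda2 and Ascl2 silent on the paternal copy, which leaves the maternal copy active. Tssc4 and Cd81 lie in the same domain and show imprinting mainly in the placenta.

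The members stand in 2 tight pairs and several isolated positions. Cd81 (143052739 to 143067934, plus strand) ends 1314 bases before Tssc4 (143069249 to 143071093, plus strand). Slc22a18 (143473721 to 143499334, plus strand) ends 2210 bases before Phlda2 (143501545 to 143502541, minus strand), and it starts 12670 bases beyond Cdkn1c (143458350 to 143461050, minus strand). H19 (142575529 to 142578143) and Igf2 (142650766 to 142666816), both on the minus strand, are 72622 bases apart, and Ascl2 (142966822 to 142969264, minus strand) stands alone between them and Cd81. Whether the number of CG dinucleotides, the sites at which DNA is methylated, goes with the change of a member was not tested. The promoters of 3 members that moved in different ways are shown here with these sites marked. They are 300-base windows from RefSeq (GRCm38.p6), with 250 bases before and 50 after the start, written 5′ to 3′ on the gene's strand with each CG in capitals.
Phlda2, chr7:143502475-143502774, minus strand: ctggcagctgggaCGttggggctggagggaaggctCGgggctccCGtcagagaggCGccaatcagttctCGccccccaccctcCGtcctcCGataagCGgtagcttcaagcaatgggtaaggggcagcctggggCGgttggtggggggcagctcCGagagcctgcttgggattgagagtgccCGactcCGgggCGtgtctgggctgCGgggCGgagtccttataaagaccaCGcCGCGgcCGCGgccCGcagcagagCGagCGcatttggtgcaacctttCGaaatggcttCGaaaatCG
Slc22a18, chr7:143473539-143473838, plus strand: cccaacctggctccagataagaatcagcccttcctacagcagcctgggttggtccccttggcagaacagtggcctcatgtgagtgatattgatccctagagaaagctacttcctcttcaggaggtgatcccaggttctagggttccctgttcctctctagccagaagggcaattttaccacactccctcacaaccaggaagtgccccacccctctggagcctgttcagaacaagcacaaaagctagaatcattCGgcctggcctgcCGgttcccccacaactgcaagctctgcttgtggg
Igf2, window with the most CG, chr7:142658755-142659054, minus strand: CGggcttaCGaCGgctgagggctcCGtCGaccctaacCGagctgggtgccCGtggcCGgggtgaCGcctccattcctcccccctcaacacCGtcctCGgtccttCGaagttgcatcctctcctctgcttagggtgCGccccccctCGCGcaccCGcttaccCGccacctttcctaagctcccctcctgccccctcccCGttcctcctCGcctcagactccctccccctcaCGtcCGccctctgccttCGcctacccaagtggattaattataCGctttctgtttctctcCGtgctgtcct

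The Phlda2 window held 26 CG dinucleotides and the Slc22a18 window 2, although the genes are neighbours. The printed Igf2 window held 24, and the other 3 Igf2 windows held 2, 7 and 14. Ascl2, Cd81 and Tssc4 had 23 each, and Kcnq1ot1 had 9. Over all 32851 promoters of the table the median was 7, with quartiles of 3 and 20. RefSeq promoters were matched for 7 listed members, with 10 windows in all. The TCF/LEF core CTTTGAT, searched on both strands, was in 0 of these 10 windows and in 3.73% of all promoters, which says only that these letters are not in those windows.

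Libraries differed in ways that their group labels do not give. Sequencing depth ran from 10550000 to 15760000 reads in 8 libraries, and was approximated at 8050000 to 18400000 reads in the 6 S/L and 8-day GSK3i/L libraries, whose values the authors had matched to a shared distribution. S/L and 8-day GSK3i/L were thus compared within the matched libraries and 2i/L and MEKi/L within the others, while the other 5 comparisons cross the 2 treatments. A score of long minus short transcripts, in log2 units, averaged 0.17 ± 0.06 in the 2i/L libraries, −1.05 ± 1.32 in the MEKi/L libraries, −3.51 ± 0.41 and −1.55 ± 1.48 after 24 and 8 days of GSK3i/L, and −2.72 ± 0.22 in S/L (SD). MEKi/L replicate 1 (0.45) and GSK3i/L replicate 1 at 8 days (0.07) stood apart from the other libraries of their groups, which ran from −2.84 to −1.59. With both left out, 5 members were called in MEKi/L against S/L (35.5% of all tested genes), 5 in GSK3i/L against S/L (26.5%), 4 in 2i/L against GSK3i/L (45.0%), 4 in 2i/L against MEKi/L (36.7%), 3 in MEKi/L against GSK3i/L (14.7%), and 1 between 24 and 8 days of GSK3i/L (13.4%). Of 40 tested long transcripts, 36 rose and 1 fell in 2i/L against S/L, at a median log2 fold change of 1.83. Of 40 short ones, 1 rose and 30 fell, at a median of −1.36. Beside these, 39.1% of all tested genes rose and 24.4% fell, at a median of 0.28. Long transcripts also had positive medians in MEKi/L (1.12) and GSK3i/L (0.66) against S/L. The part of transcript length in the calls of listed genes other than members was not tested. The 10 pluripotency markers checked (Pou5f1, Nanog, Sox2 and others) each reached 1 read per 1000000 reads (RPM) in every group, and their summed level ran from 5949 to 7633 RPM over the libraries.

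The cluster did not move as a block. Differences were tested with limma across the 14980 genes that reached 0.5 RPM in 3 or more libraries, and a gene was called at a Benjamini-Hochberg adjusted p under 0.05 over all of them. All 8 members with values passed that filter. In 2i/L against S/L, 2 of the 8 members rose (Slc22a18, Cd81), 4 fell (Igf2, Cdkn1c, Phlda2, Ascl2) and 2 did not pass, where 63.6% of all tested genes were called (39.1% higher, 24.4% lower). In MEKi/L against S/L, 2 rose (Slc22a18, Cd81), 3 fell (Igf2, Cdkn1c, Phlda2) and 3 did not pass, against 40.8% of all genes called (26.1% higher, 14.7% lower). In GSK3i/L against S/L, 3 rose (Igf2, Slc22a18, Cd81), 2 fell (Cdkn1c, Phlda2) and 3 did not pass, against 31.1% of all genes called (16.8% higher, 14.4% lower). Igf2 was thus the member whose call had the opposite sign in GSK3i/L against S/L and in MEKi/L against S/L. All 3 of these comparisons share the S/L libraries.

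Between inhibitor media fewer members were called. In 2i/L against GSK3i/L, 1 of the 8 rose, 3 fell and 4 did not pass, with 27.8% of all genes called (19.8% higher, 8.02% lower). In 2i/L against MEKi/L, 2 rose, 1 fell and 5 did not pass, with 12.9% of all genes called (6.81% higher, 6.11% lower). In MEKi/L against GSK3i/L, 0 members rose, 3 were lower and 5 missed the threshold, with 17.8% of all genes called (12.2% higher, 5.65% lower). At an unadjusted p under 0.05, 0 members were higher there as well. In GSK3i/L at 24 against 8 days, 1 rose, 1 fell and 6 did not pass, with 17.5% of all genes called (4.3% higher, 13.2% lower). The median log2 fold change of the 8 members was −1.10 in 2i/L, −1.17 in MEKi/L and −0.15 in GSK3i/L, each against S/L, beside 0.28, 0.17 and 0.06 over all tested genes. It was −0.49 in 2i/L against GSK3i/L, 0.57 in 2i/L against MEKi/L, −0.04 in MEKi/L against GSK3i/L and −0.16 at 24 against 8 days, beside 0.18, 0.07, 0.09 and −0.19 over all tested genes. Since the median of all genes was off 0, each library was also centred on its median, and the called members kept their direction in all 7 comparisons. Over all genes, centring turned the split of calls from 5863 higher and 3658 lower to 4125 higher and 4787 lower in 2i/L against S/L. It gave 3012 higher and 2946 lower in place of 3917 and 2201 in MEKi/L against S/L, and 1436 higher and 2354 lower in place of 2969 and 1202 in 2i/L against GSK3i/L. In 2i/L against MEKi/L it gave 734 higher and 1183 lower in place of 1020 and 916, and in MEKi/L against GSK3i/L 1408 and 1400 in place of 1823 and 847. At 24 against 8 days centring gave 731 higher and 1544 lower in place of 644 and 1972, and trimmed mean scaling gave 813 and 1305.

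**Figure D1:**
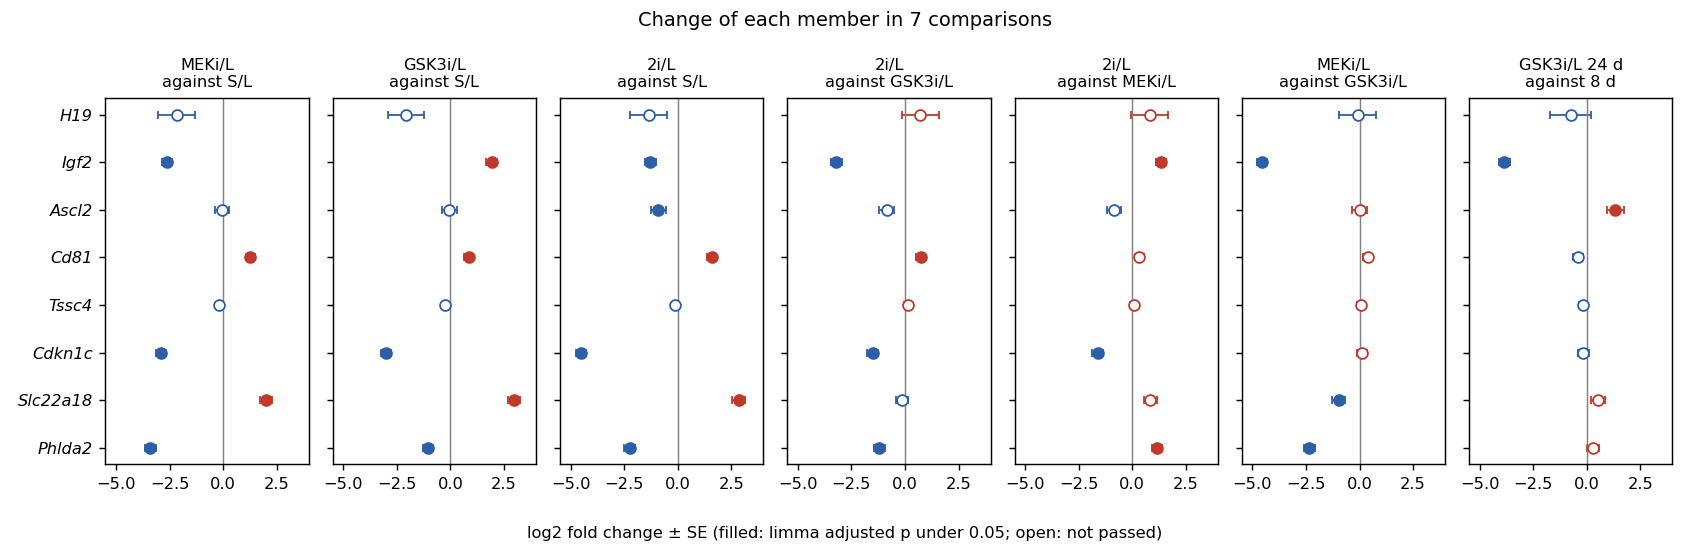
Log2 fold change ± SE of each member (rows, in chromosomal order) in 7 comparisons (panels), with filled points for an adjusted p under 0.05 from limma, red for higher and blue for lower in the group named at the top of the panel. Cdkn1c and Phlda2 lie left of 0 and Slc22a18 and Cd81 right of 0 in all 3 comparisons with S/L, while Igf2 is at −2.63 in MEKi/L, 1.92 in GSK3i/L and −1.28 in 2i/L.

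Igf2, the fetal growth factor of the insulin family that signals through the IGF1 receptor, was highest in GSK3i/L at 8 days and lower in every other group. Igf2 stood at 10.6, 7.82 and 9.52 RPM in the 2i/L libraries, at 3.93, 3.89 and 3.13 RPM in the MEKi/L libraries and at 4.94 and 7.13 RPM after 24 days of GSK3i/L. The 8-day GSK3i/L libraries had 77.8, 98.7 and 80.9 RPM, and the S/L libraries 32.4, 16.2 and 21.6 RPM. The 5 groups did not overlap anywhere in the order from MEKi/L at the low end through GSK3i/L at 24 days, 2i/L and S/L to GSK3i/L at 8 days. In these bulk samples, fewer cells that transcribe a gene and less RNA per cell cannot be told apart.

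Against S/L, Igf2 rose in GSK3i/L (log2 fold change 1.92 ± 0.25, limma adjusted p = 7.9e-05) and fell in MEKi/L (−2.63 ± 0.25, adjusted p = 3.2e-06) and in 2i/L (−1.28 ± 0.25, adjusted p = 0.00053). Between inhibitor media, Igf2 was 23.5-fold lower in MEKi/L than in GSK3i/L (−4.56 ± 0.25, limma adjusted p = 1.3e-07) and 9.23-fold lower in 2i/L than in GSK3i/L (−3.21 ± 0.25, adjusted p = 1.8e-06). It was 2.55-fold higher in 2i/L than in MEKi/L (1.35 ± 0.25, limma adjusted p = 0.0028). In GSK3i/L, Igf2 averaged 6.04 ± 1.55 RPM at 24 days (SD, n = 2) and 85.8 ± 11.2 RPM at 8 days (SD, n = 3), a 14.4-fold lower level at the later time (−3.85 ± 0.27, limma adjusted p = 3.4e-06). Every one of these 7 calls was kept in all processing alternatives run. Igf2 shares 7124 bases with its antisense gene Igf2os (Igf2as in the table), and whether reads were counted by strand is not given in the sources used here. Igf2os itself reached at most 0.91 RPM in any library.

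**Figure D2:**
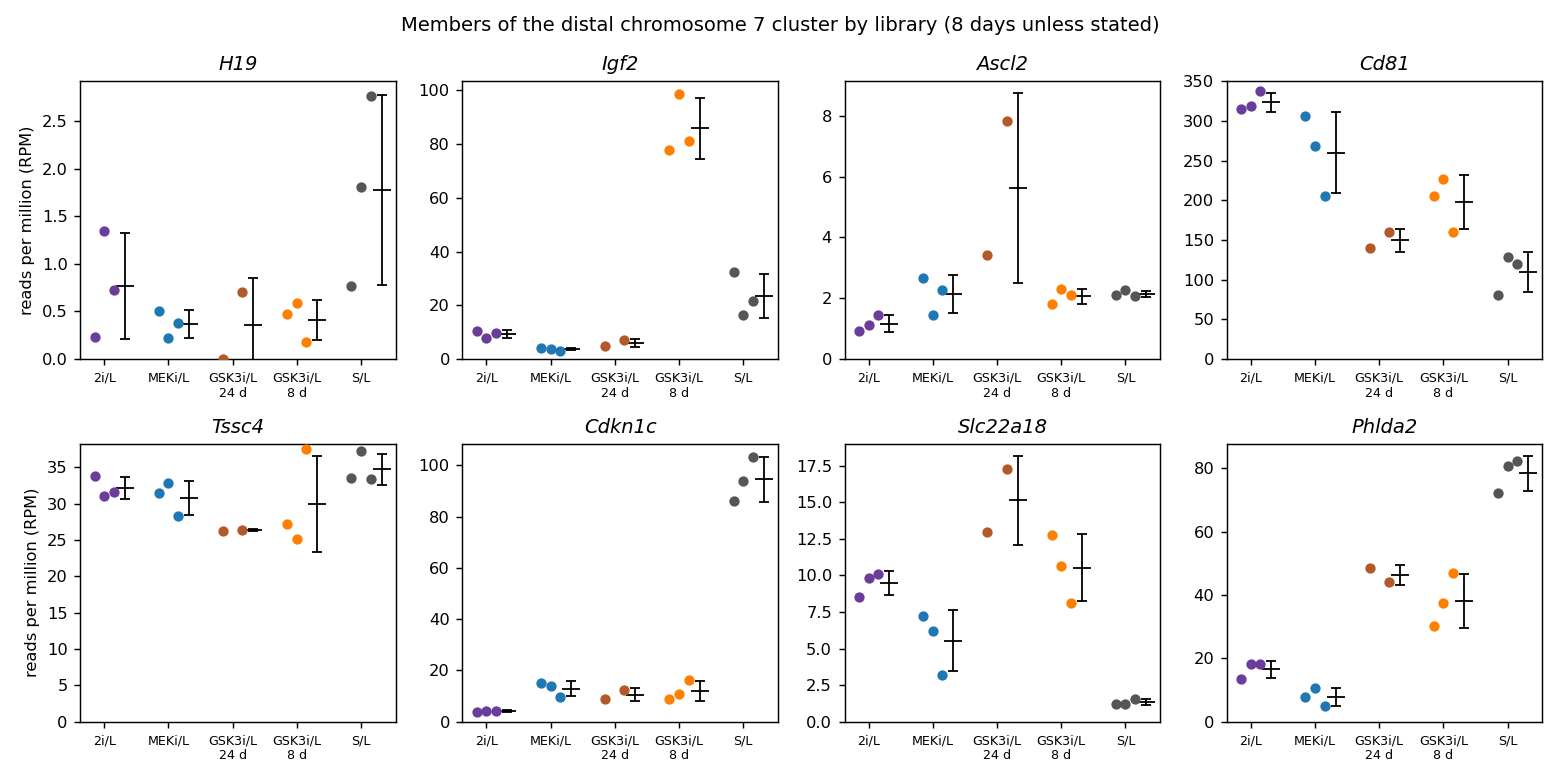
Level of each member in RPM (linear axis from 0, separate scale for each gene) in every library, as points in replicate order, with the mean and SD bar of the group (n = 3, and n = 2 at 24 days). The SD bar of H19 at 24 days is clipped at 0. Igf2 is highest in all 3 GSK3i/L libraries at 8 days, Cdkn1c and Phlda2 in all 3 S/L libraries, and Slc22a18 is lowest in all 3 S/L libraries.

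Markers of mesoderm and mesenchyme moved with Igf2 in GSK3i/L. The summed level of 14 such markers was 218 to 368 RPM in 2i/L libraries, 209 to 367 RPM in MEKi/L libraries, 131 to 152 RPM after 24 days of GSK3i/L, 462 to 941 RPM after 8 days of GSK3i/L and 99.9 to 162 RPM in S/L. Vim, a filament gene also active in many cultured cells, made up most of every sum, at 194 to 345 RPM in 2i/L, 196 to 354 RPM in MEKi/L, 112 to 130 RPM after 24 days and 310 to 640 RPM after 8 days of GSK3i/L, and 72.4 to 112 RPM in S/L. The other 13 markers summed to 22.9 to 24.3 RPM in 2i/L, 7.96 to 13.01 RPM in MEKi/L, 19.3 to 21.7 RPM after 24 days and 153 to 300.5 RPM after 8 days of GSK3i/L, and 27.5 to 49.3 RPM in S/L. Without Vim, a split made after the values were seen, each 2i/L, MEKi/L and 24-day library thus lay below each S/L library, as it did for Igf2. Acta2 averaged 18.4 ± 9.84 RPM in S/L (SD), 4.12 RPM in 2i/L, 1.55 RPM in MEKi/L and 0.076 RPM after 24 days. Of the other tested markers apart from Vim, T, Prrx1, Col1a1, Col1a2, Col3a1 and Pdgfrb averaged higher in 2i/L than in S/L, and Twist1, Thy1 and Tbx6 lower. The order of the sums thus did not hold for each marker. Of 11 tested markers, 8 rose and 0 fell in GSK3i/L against S/L, 4 rose and 3 fell in 2i/L against S/L, and 1 rose (Vim) and 4 fell in MEKi/L against S/L, at medians of 2.26, 0.15 and −0.87. Of all tested genes, 16.8% rose and 14.4% fell in GSK3i/L, 39.1% and 24.4% in 2i/L, and 26.1% and 14.7% in MEKi/L, each against S/L. Called in either direction were 31.1%, 63.6% and 40.8% of all tested genes. Against GSK3i/L, 0 rose and 8 fell in 2i/L and 0 rose and 7 fell in MEKi/L, while 5 rose and 2 fell in 2i/L against MEKi/L. Of all tested genes, 19.8% rose and 8.02% fell in 2i/L against GSK3i/L, 12.2% and 5.65% in MEKi/L against GSK3i/L, and 6.81% and 6.11% in 2i/L against MEKi/L. The same shares stand beside the counts of the other marker groups below. Of the 11, 8 fell at 24 against 8 days, beside 13.2% of all tested genes. Mixl1, Twist2, Prrx1, Col1a2 and Col3a1 were at 0 reads in both 24-day libraries. The collagen gene Col3a1 averaged 86.7 ± 36.6 RPM in GSK3i/L at 8 days and 0.13 ± 0.12 RPM in S/L (SD, n = 3 each). Among the GSK3i/L libraries at 8 days, replicate 1 had the highest marker sum and the lowest Igf2 level. Endoderm markers summed to at most 51.2 RPM in any library, and of 8 tested 0 rose and 4 fell in 2i/L against S/L, 1 rose and 2 fell in MEKi/L against S/L, 2 rose and 0 fell in GSK3i/L against S/L, 0 rose and 4 fell in 2i/L against GSK3i/L, and 0 rose and 3 fell in MEKi/L against GSK3i/L. Trophoblast markers summed to at most 125 RPM, and the trophoblast genes Tpbpa and Prl3d1 were at 0 reads in all 14 libraries. Of 7 tested trophoblast markers, 4 rose and 1 fell in 2i/L, 1 rose and 1 fell in MEKi/L, and 1 rose and 3 fell in GSK3i/L, each against S/L. Neural markers summed to 35.8 to 372 RPM, with Neurog2 at 0 reads in every group, and of 6 tested 1 rose and 3 fell in 2i/L, 2 rose and 1 fell in MEKi/L, and 0 rose and 4 fell in GSK3i/L, each against S/L. In MEKi/L against GSK3i/L 5 of the neural markers rose and 0 fell. The part of these marker groups in the Igf2 result was not tested.

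**Figure D3:**
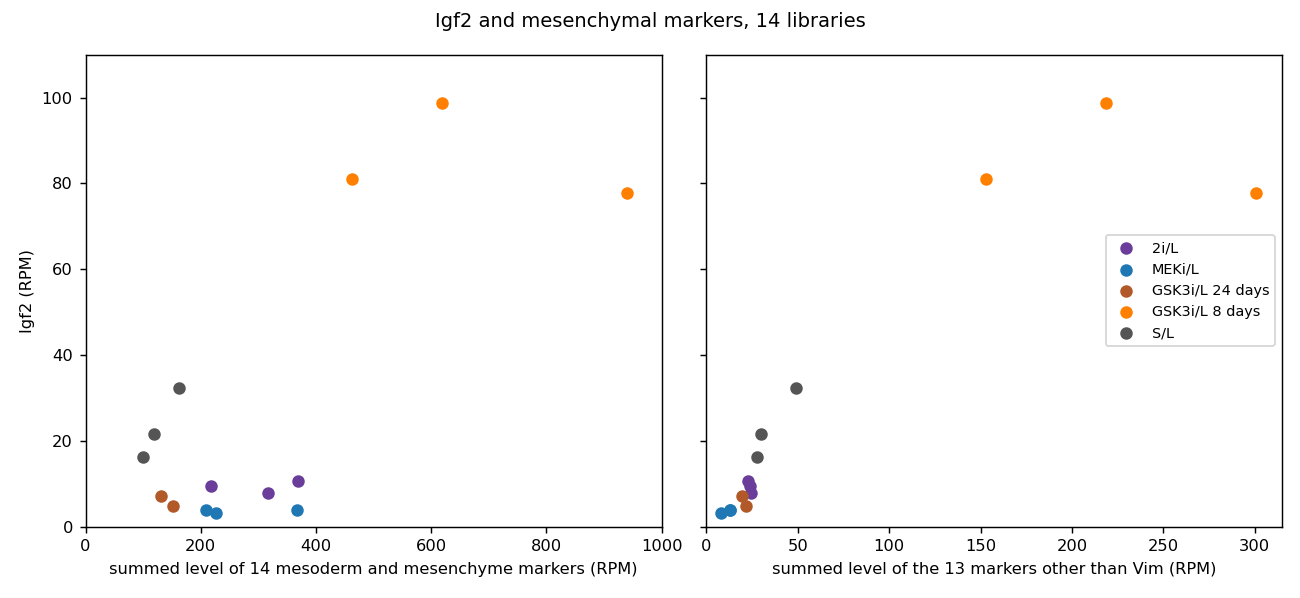
Igf2 level (RPM, vertical axis) in the 14 libraries, coloured by group, against the summed level (RPM, horizontal axis) of 14 mesoderm and mesenchyme markers on the left and of the 13 markers other than Vim on the right, on linear axes from 0. The 3 GSK3i/L libraries at 8 days lie apart at 77.8 to 98.7 RPM of Igf2 in both panels, and the 2i/L and MEKi/L libraries, which lie to the right of S/L on the left, lie to its left once Vim is taken out, at 24.3 RPM or less.

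H19, a spliced RNA with no known protein product that also hosts a microRNA, was low in every group. Its level was 0.23, 1.34 and 0.73 RPM in 2i/L (3, 17 and 11 reads), 0.51, 0.22 and 0.38 RPM in MEKi/L (8, 3 and 4 reads) and 0.47, 0.59 and 0.18 RPM in GSK3i/L at 8 days (7, 6 and 1 reads). At 24 days the pair of libraries had 0 and 8 reads, and S/L had 0.76, 1.81 and 2.76 RPM (8, 20 and 29 reads). The S/L libraries lay above all MEKi/L and all 8-day GSK3i/L libraries but overlapped those in 2i/L. No comparison passed: H19 differed from S/L by −2.17 ± 0.86 in MEKi/L (limma adjusted p = 0.056), by −2.08 ± 0.86 in GSK3i/L (adjusted p = 0.077) and by −1.36 ± 0.86 in 2i/L (adjusted p = 0.18). The MEKi/L difference crossed the threshold in 7 of 17 alternatives, with adjusted p between 0.014 and 0.17 over them, and the GSK3i/L difference in 2. Igf2, which shares enhancers and a control region with H19, passed in all 3 comparisons with S/L and H19 in 0 of them. The difference between the genes was not tested.

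Cdkn1c, which encodes the cyclin-dependent kinase inhibitor p57 and restrains growth, was highest in serum and lowest in 2i/L. It had 3.73, 4.19 and 4.36 RPM in 2i/L, 15.1, 13.96 and 9.48 RPM in the MEKi/L libraries and 8.81 and 12.4 RPM at 24 days of GSK3i/L. It had 8.96, 10.9 and 16.3 RPM in GSK3i/L at 8 days and 86.2, 94.0 and 103.5 RPM in S/L. The 2i/L libraries lay below all others and the S/L libraries above all others, while MEKi/L and both times of GSK3i/L overlapped.

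Against S/L, Cdkn1c was 23.1-fold lower in 2i/L (log2 fold change −4.53 ± 0.24, limma adjusted p = 1.2e-08), 7.49-fold lower in MEKi/L (−2.90 ± 0.24, adjusted p = 1.1e-06) and 8.07-fold lower in GSK3i/L (−3.01 ± 0.24, adjusted p = 1.9e-06). With both inhibitors it was lower than with either alone, at −1.62 ± 0.24 in 2i/L against MEKi/L (limma adjusted p = 0.00062) and −1.51 ± 0.24 in 2i/L against GSK3i/L (adjusted p = 0.00047). MEKi/L and GSK3i/L were not told apart, at 0.11 ± 0.24 (95% interval −0.41 to 0.62, limma adjusted p = 0.83), and neither were 24 and 8 days of GSK3i/L, at −0.16 ± 0.27 (adjusted p = 0.69). The calls held in all alternatives run.

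Phlda2, a small pleckstrin homology domain protein that limits growth of the placenta, also stood highest in serum, but its order among the inhibitor media was another. It had 13.5, 18.2 and 18.2 RPM in 2i/L, 7.81, 10.5 and 4.93 RPM in the MEKi/L libraries and 48.5 and 44.1 RPM at 24 days of GSK3i/L. It had 30.2, 37.4 and 47.0 RPM in GSK3i/L at 8 days and 72.2, 80.7 and 82.3 RPM in S/L. MEKi/L, 2i/L, GSK3i/L and S/L followed each other without overlap at 8 days, and the 24-day libraries overlapped those at 8 days.

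Phlda2 fell in all 3 media against S/L, with log2 fold changes of −3.40 ± 0.25 in MEKi/L (limma adjusted p = 4.1e-07), −2.25 ± 0.25 in 2i/L (adjusted p = 5.5e-06) and −1.06 ± 0.25 in GSK3i/L (adjusted p = 0.0062). It was lower in MEKi/L than in GSK3i/L (−2.35 ± 0.25, limma adjusted p = 1.5e-05) and lower in 2i/L than in GSK3i/L (−1.19 ± 0.25, adjusted p = 0.003). Unlike Cdkn1c it was higher in 2i/L than in MEKi/L (1.15 ± 0.25, limma adjusted p = 0.0075). At 24 against 8 days of GSK3i/L it differed by 0.30 ± 0.28 (adjusted p = 0.44). The 6 calls held in all alternatives run.

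Slc22a18, a membrane protein related to organic cation transporters, lies between Cdkn1c and Phlda2 and went the other way. It had 8.54, 9.80 and 10.1 RPM in 2i/L, 7.23, 6.19 and 3.22 RPM in the MEKi/L libraries and 12.99 and 17.3 RPM at 24 days of GSK3i/L. It had 12.7, 10.7 and 8.15 RPM in GSK3i/L at 8 days and 1.19, 1.22 and 1.57 RPM in S/L, the last of these from 12 to 17 reads a library. All S/L libraries lay below all others.

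Slc22a18 was 7.19-fold higher in 2i/L than in S/L (log2 fold change 2.85 ± 0.29, limma adjusted p = 3e-06), 3.99-fold higher in MEKi/L (2.00 ± 0.29, adjusted p = 0.00012) and 7.87-fold higher in GSK3i/L (2.98 ± 0.29, adjusted p = 8.9e-06). These 3 calls held in all alternatives run. It fell in MEKi/L against GSK3i/L (−0.98 ± 0.29, limma adjusted p = 0.03), a call that was lost without GSK3i/L replicate 1 (adjusted p = 0.093) or 2 (adjusted p = 0.081). Without MEKi/L replicate 3, which had the lowest level, that difference was −0.63 (adjusted p = 0.14). In 2i/L against MEKi/L it differed by 0.85 ± 0.29 (limma adjusted p = 0.068), and it passed without MEKi/L replicate 1 (1.08, adjusted p = 0.023). Slc22a18 differed by −0.13 ± 0.29 in 2i/L against GSK3i/L (adjusted p = 0.75) and by 0.53 ± 0.32 at 24 against 8 days (adjusted p = 0.24).

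Ascl2, a basic helix-loop-helix factor that the mouse trophoblast needs, was scarce in every library, with 12 to 89 reads. It had 0.91, 1.11 and 1.45 RPM in 2i/L, 2.67, 1.44 and 2.27 RPM in the MEKi/L libraries and 3.42 and 7.84 RPM at 24 days of GSK3i/L. It had 1.80, 2.30 and 2.10 RPM in GSK3i/L at 8 days and 2.11, 2.26 and 2.07 RPM in S/L. The 24-day libraries lay above all others, and MEKi/L, 8-day GSK3i/L and S/L overlapped.

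Ascl2 fell in 2i/L against S/L (−0.91 ± 0.35, limma adjusted p = 0.033) and rose in GSK3i/L at 24 against 8 days (1.33 ± 0.39, adjusted p = 0.034), and both calls were fragile. The first was lost without any single S/L replicate, or without 2i/L replicate 1 or 2 (adjusted p from 0.059 to 0.11). The second was lost without GSK3i/L replicate 1 (limma adjusted p = 0.11) or 2 (adjusted p = 0.054), and without 24-day replicate 3 it was 0.74 (adjusted p = 0.26). Ascl2 differed from S/L by −0.06 ± 0.35 in MEKi/L (95% interval −0.80 to 0.68, limma adjusted p = 0.9) and by −0.06 ± 0.35 in GSK3i/L (adjusted p = 0.91). Differences between 2i/L and the single inhibitors were −0.85 ± 0.35 against GSK3i/L (limma adjusted p = 0.079) and −0.86 ± 0.35 against MEKi/L (adjusted p = 0.11).

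Cd81, a tetraspanin of the cell surface, and Tssc4, whose human counterpart takes part in assembly of the spliceosome, are neighbours with unlike patterns. Cd81 had 315, 319 and 338 RPM in 2i/L, 307, 269 and 206 RPM in the MEKi/L libraries and 140 and 160 RPM at 24 days of GSK3i/L. It had 205, 228 and 161 RPM in GSK3i/L at 8 days and 81.1, 128 and 120 RPM in S/L. The S/L libraries lay below all others and the 2i/L libraries above all others.

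Cd81 rose against S/L by 1.59 ± 0.21 on the log2 scale in 2i/L (limma adjusted p = 2.8e-05), 1.26 ± 0.21 in MEKi/L (adjusted p = 0.00038) and 0.86 ± 0.21 in GSK3i/L (adjusted p = 0.0078), the last below a 2-fold difference. It also rose in 2i/L against GSK3i/L (0.72 ± 0.21, limma adjusted p = 0.02), but centring of the libraries gave 0.42 (adjusted p = 0.13). That call was lost as well without GSK3i/L replicate 3 (0.58, limma adjusted p = 0.069) and without 2i/L replicate 1, 2 or 3 (adjusted p = 0.051, 0.058 and 0.068). Cd81 differed by 0.33 ± 0.21 in 2i/L against MEKi/L (limma adjusted p = 0.28), by 0.39 ± 0.21 in MEKi/L against GSK3i/L (adjusted p = 0.24) and by −0.39 ± 0.23 at 24 against 8 days (adjusted p = 0.23). Cd81 shares 948 bases with the gene R74862 on the other strand, which had 6.22 to 12.7 RPM.

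Tssc4 averaged 32.1 ± 1.51 RPM in the 2i/L libraries, 30.8 ± 2.34 RPM in the MEKi/L libraries, 26.4 ± 0.098 and 30.0 ± 6.64 RPM after 24 and 8 days of GSK3i/L and 34.7 ± 2.13 RPM in S/L (SD, n = 3, and n = 2 at 24 days). Neighbouring groups in the order of levels overlapped in part, but all MEKi/L libraries (28.2 to 32.8 RPM) and both 24-day libraries (26.3 and 26.4 RPM) lay below all S/L libraries (33.4 to 37.2 RPM). Even so, 0 of 7 comparisons passed with limma (0 at an unadjusted p under 0.05), though GSK3i/L at 24 days against S/L was not among them. Against S/L the log2 fold change of Tssc4 was −0.11 ± 0.16 in 2i/L (95% interval −0.46 to 0.23), −0.17 ± 0.16 in MEKi/L (−0.52 to 0.17) and −0.23 ± 0.16 in GSK3i/L (−0.58 to 0.11). Tssc4 passed in 2i/L against S/L in 2 of 16 alternatives (lowest limma adjusted p = 0.034). One of them centred each library on its median and gave a lower level (−0.42, adjusted p = 0.037). In GSK3i/L against S/L it passed as lower without GSK3i/L replicate 3 (−0.41, limma adjusted p = 0.036). Tssc4 lies wholly within the span of Trpm5 on the other strand, which had at most 1.58 RPM.

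Along the chromosome, neighbouring genes had calls of opposite sign. From Cdkn1c over 12670 bases to Slc22a18 and 2210 bases on to Phlda2, the 3 genes fell, rose and fell in each of 2i/L, MEKi/L and GSK3i/L against S/L. Among 22 other genes of the region, 12 were tested. Of these 12, 5 rose, 4 fell and 3 did not pass in 2i/L against S/L, 2 rose and 1 fell in MEKi/L, and 1 rose and 0 fell in GSK3i/L, at medians of 0.54, 0.44 and 0.45. Over all tested genes 63.6%, 40.8% and 31.1% were called in these 3 comparisons, at medians of 0.28, 0.17 and 0.06. The lipid transfer gene Osbpl5 fell in 2i/L against S/L (−1.72 ± 0.49, limma adjusted p = 0.0077), as did the leukocyte gene Lsp1 (−2.30 ± 0.63, adjusted p = 0.0056), while Dhcr7, which makes cholesterol, rose (1.12 ± 0.26, adjusted p = 0.0019). Lsp1 is low, at 1.85 RPM or less in every library. Igf2os fell in 2i/L against GSK3i/L (−3.36 ± 0.71, limma adjusted p = 0.0034), with the overlap with Igf2 named above. Among the neighbours, 0 rose and 3 fell in 2i/L against GSK3i/L, 0 were called in 2i/L against MEKi/L, 0 rose and 2 fell in MEKi/L against GSK3i/L, and 1 rose and 1 fell at 24 against 8 days. Over all tested genes, 19.8% rose and 8.02% fell in 2i/L against GSK3i/L, and 6.81% and 6.11% in 2i/L against MEKi/L. In MEKi/L against GSK3i/L 12.2% rose and 5.65% fell, and at 24 against 8 days 4.3% and 13.2%.

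**Figure D4:**
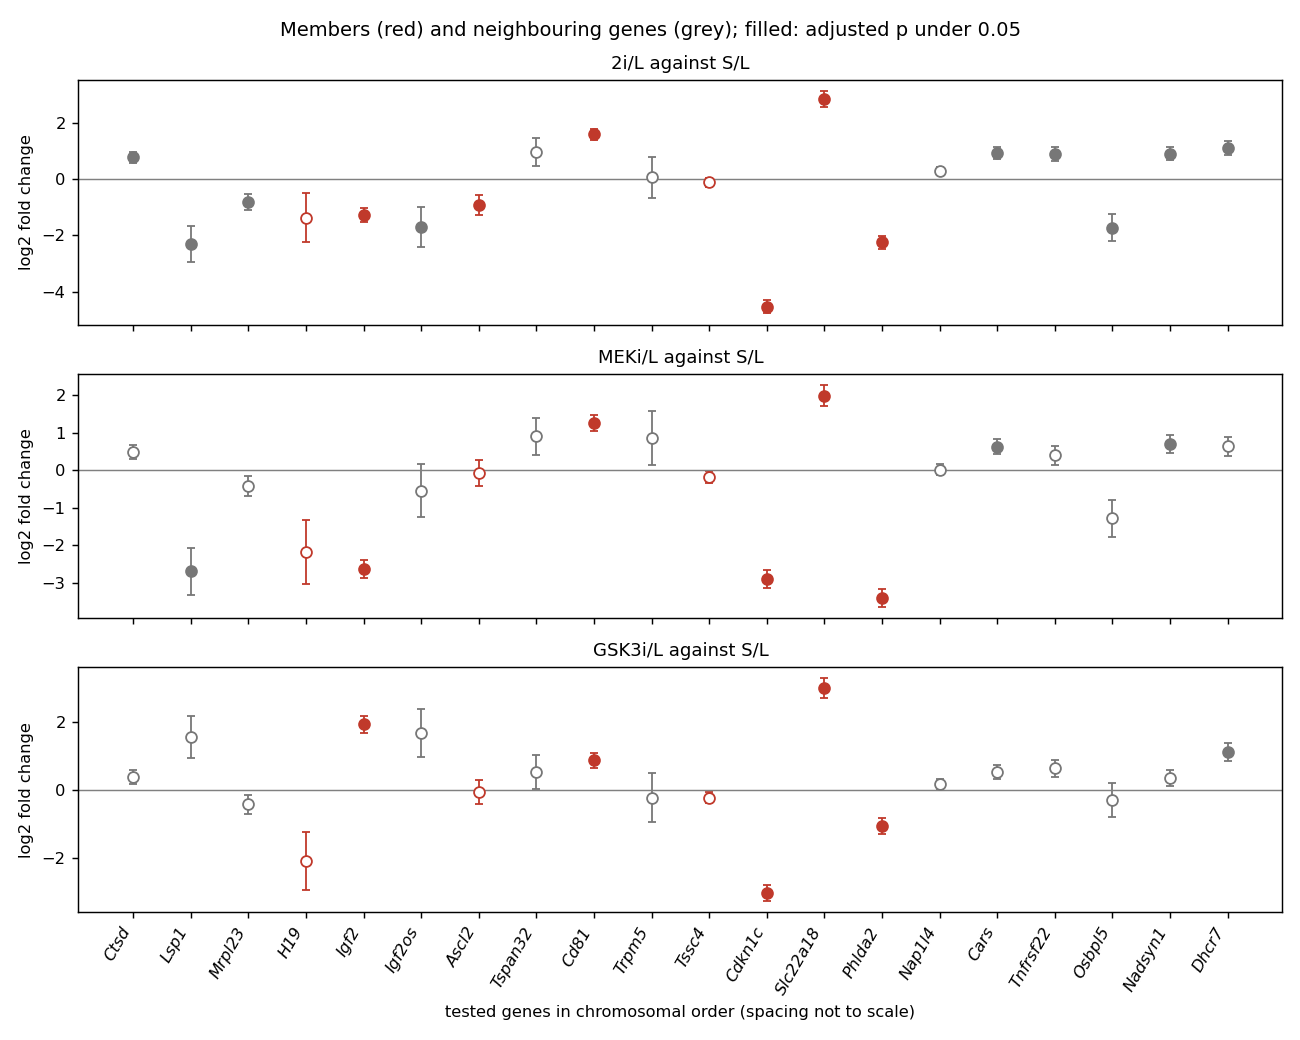
Log2 fold change ± SE of the 8 members (red) and 12 tested neighbours (grey) against S/L, in chromosomal order with equal spacing, for 2i/L, MEKi/L and GSK3i/L from top to bottom; filled points have an adjusted p under 0.05 from limma. Slc22a18 stands above 0 between Cdkn1c and Phlda2 below 0 in all 3 panels, and Nap1l4, the next tested gene, is at 0.30, 0.01 and 0.18 without a call.

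Receptors, carriers and downstream genes of IGF2 were called against S/L about as often as genes in general. A list of 17 further genes of the pathway had 13 tested members, of which 6 rose, 3 fell and 4 did not pass in 2i/L against S/L. In MEKi/L against S/L 4 rose and 2 fell, and in GSK3i/L against S/L 3 rose and 1 fell. Called were thus 9, 6 and 4 of the 13, beside 63.6%, 40.8% and 31.1% of all tested genes. Medians were 0.56, 0.52 and 0.63, against 0.28, 0.17 and 0.06 over all tested genes. Igf2r, the clearance receptor for IGF2, rose in 2i/L against S/L (2.01 ± 0.38, limma adjusted p = 0.0005). It also rose in 2i/L against MEKi/L (1.46 ± 0.38, adjusted p = 0.023) and in GSK3i/L against S/L (1.11 ± 0.38, adjusted p = 0.041). Whether transcript length had a part in the rises of Igf2r was not tested. The binding protein gene Igfbp5 rose in 2i/L (3.03 ± 0.56, limma adjusted p = 0.00042) and MEKi/L (3.29 ± 0.56, adjusted p = 0.00046), and Igfbp3 fell in 2i/L, MEKi/L and GSK3i/L (−2.63 ± 0.31, −2.18 ± 0.31 and −2.46 ± 0.31), all against S/L. Igfbp5 is low, with means of 1.86 RPM in 2i/L, 2.21 RPM in MEKi/L and 0.29 RPM in S/L. Irs1, the adaptor downstream of the receptor, was higher in GSK3i/L than in S/L (2.13 ± 0.57, limma adjusted p = 0.013) and lower at 24 than at 8 days (−2.77 ± 0.64, adjusted p = 0.017). At 24 against 8 days, 0 of the 13 rose and 7 fell, at a median of −1.06, beside 13.2% of all tested genes that fell, at a median of −0.19. Of the same 13, 3 rose and 2 fell in 2i/L against GSK3i/L, 1 rose and 1 fell in 2i/L against MEKi/L, and 1 rose and 3 fell in MEKi/L against GSK3i/L. Over all tested genes, 19.8% rose and 8.02% fell in 2i/L against GSK3i/L, and 6.81% and 6.11% in 2i/L against MEKi/L. In MEKi/L against GSK3i/L 12.2% rose and 5.65% fell.

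Among the other cyclin-dependent kinase inhibitor genes, none fell where Cdkn1c fell against S/L. Of 6 tested, 4 rose and 0 fell in 2i/L against S/L, 4 rose and 0 fell in MEKi/L against S/L, and 3 rose and 0 fell in GSK3i/L against S/L, at medians of 1.56, 1.07 and 0.60. Of all tested genes 39.1%, 26.1% and 16.8% rose in these comparisons. Cdkn1a, which encodes p21, rose in 2i/L (2.85 ± 0.31, limma adjusted p = 4.8e-06), MEKi/L (1.14 ± 0.31, adjusted p = 0.0094) and GSK3i/L (2.19 ± 0.31, adjusted p = 0.00016). Cdkn2a, which encodes p16 and ARF, rose by 2.59 ± 0.19, 2.22 ± 0.19 and 1.35 ± 0.19 in 2i/L, MEKi/L and GSK3i/L against S/L (limma adjusted p = 1.5e-07, 1.3e-06 and 0.00015). Between inhibitor media 2 rose and 0 fell in 2i/L against GSK3i/L, 1 rose and 0 fell in 2i/L against MEKi/L, and 3 rose and 1 fell in MEKi/L against GSK3i/L. At 24 against 8 days 0 of the 6 were called. Over all tested genes, 19.8% rose and 8.02% fell in 2i/L against GSK3i/L, and 6.81% and 6.11% in 2i/L against MEKi/L. In MEKi/L against GSK3i/L 12.2% rose and 5.65% fell, and at 24 against 8 days 4.3% and 13.2%.

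Imprinted genes elsewhere in the genome that are described as a network with Igf2 and H19 had calls in both directions. Of 12 tested, 2 rose and 5 fell in 2i/L against S/L, 1 rose and 7 fell in MEKi/L, and 2 rose and 4 fell in GSK3i/L, at medians of −0.60, −1.15 and −0.06. Of all tested genes 24.4% fell in 2i/L, 14.7% in MEKi/L and 14.4% in GSK3i/L, and 39.1%, 26.1% and 16.8% rose. Plagl1, a zinc finger factor known to activate genes of the network in the mouse, rose in 2i/L (6.59 ± 0.56, limma adjusted p = 6.1e-07), MEKi/L (3.42 ± 0.56, adjusted p = 0.00034) and GSK3i/L (2.71 ± 0.56, adjusted p = 0.003). Peg10, which derives from a retrotransposon, fell in 2i/L (−3.03 ± 0.39, limma adjusted p = 2.4e-05), MEKi/L (−3.81 ± 0.39, adjusted p = 7.4e-06) and GSK3i/L (−2.26 ± 0.39, adjusted p = 0.00083). Mest, like Igf2, was lower in MEKi/L than in GSK3i/L (−1.82 ± 0.23, limma adjusted p = 8.5e-05) and lower at 24 than at 8 days (−1.77 ± 0.26, adjusted p = 0.0011), but did not pass in GSK3i/L against S/L. Unlike Igf2, which rose there, Mest fell in 2i/L against MEKi/L (−0.80 ± 0.23, limma adjusted p = 0.037). Of the 12, 2 rose and 4 fell in 2i/L against GSK3i/L, 3 rose and 1 fell in 2i/L against MEKi/L, 0 rose and 4 fell in MEKi/L against GSK3i/L, and 1 rose and 4 fell at 24 against 8 days. Over all tested genes, 19.8% rose and 8.02% fell in 2i/L against GSK3i/L, and 6.81% and 6.11% in 2i/L against MEKi/L. In MEKi/L against GSK3i/L 12.2% rose and 5.65% fell, and at 24 against 8 days 4.3% and 13.2%.

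Factors known to guard imprints or to act at the H19 control region had calls in both directions against S/L. Of 18 tested, 10 rose and 2 fell in 2i/L against S/L, 9 rose and 2 fell in MEKi/L, and 4 rose and 1 fell in GSK3i/L, at medians of 0.69, 0.60 and 0.31. Rises also outnumbered falls over all tested genes, at 39.1% against 24.4% in 2i/L, 26.1% against 14.7% in MEKi/L and 16.8% against 14.4% in GSK3i/L. Suz12, a subunit of the repressive complex PRC2, rose in 2i/L (1.88 ± 0.22, limma adjusted p = 8.8e-06), and so did Uhrf1, which brings DNMT1 to replicating DNA (2.12 ± 0.32, adjusted p = 8e-05). Both also rose against S/L in MEKi/L (1.40 ± 0.22 and 1.43 ± 0.32, limma adjusted p = 0.00021 and 0.003). In GSK3i/L against S/L they rose by 0.90 ± 0.22 and 1.56 ± 0.32 (limma adjusted p = 0.0075 and 0.0027). The part of transcript length in these rises was not tested, and 36 of 40 long transcripts also rose in 2i/L against S/L. Dppa3, which protects some methylated imprints in the fertilized egg, fell against S/L in 2i/L (−1.01 ± 0.26, limma adjusted p = 0.0044), MEKi/L (−1.20 ± 0.26, adjusted p = 0.0028) and GSK3i/L (−2.06 ± 0.26, adjusted p = 8e-05). Of the 18, 4 rose and 1 fell in 2i/L against GSK3i/L, 0 were called in 2i/L against MEKi/L, 2 rose and 0 fell in MEKi/L against GSK3i/L, and 0 rose and 6 fell at 24 against 8 days, where 13.2% of all tested genes fell. Over all tested genes, 19.8% rose and 8.02% fell in 2i/L against GSK3i/L, and 6.81% and 6.11% in 2i/L against MEKi/L. In MEKi/L against GSK3i/L 12.2% rose and 5.65% fell.

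For each member that reached 2 RPM in a group, the 3 genes with the most similar levels were taken by Pearson correlation of log2 values over the 14 libraries, among 12964 genes. The points share libraries and depth, and the values are a description. Cdkn1c was most like Ddx25 (r = 0.988), Eno3 (0.973) and Gng3 (0.969), and Cd81 most like Taldo1 (0.990), Uck2 (0.980) and Lrch1 (0.980). Igf2 had Gypc (0.927), Gpm6b (0.923) and Antxr2 (0.923), and Phlda2 had Exosc7 (0.969), Bnipl (0.964) and Dnajc9 (0.944). Slc22a18 had Idh3g (0.972), Dennd1c (0.960) and Acap1 (0.955). Ascl2 had Sbsn (0.897), Mapk1ip1 (0.879) and Dgat1 (0.872), and Tssc4 had Med17 (0.881), Mul1 (0.870) and Slc25a26 (0.870). In 0 of these 7 cases was another member of the cluster among the 3. With only 3 of 12964 genes taken for each, this does not show whether members go together.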

How the data were processed

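RNA levels of 14 libraries in 5 groups were used, and the other 24 samples of the series (bisulfite sequencing, 12 groups) were not analysed here. The deposited table gives log2 values of reads per 1000000 reads (RPM) that the authors made, per the file headers and the values themselves. In 8 libraries at least 99.977% of the deposited values were whole multiples of 1 read (tolerance 0.02 of a read), with 0 reads at 0.9 of a read, and in the other 6 the authors' values above 2 RPM had been matched to 1 distribution, with sorted log2 values within 0.0793. Low read numbers of the matched libraries were recovered from the rank of their distinct values. Tools named in the submitters' processing notes, with no role given, were HISAT2, Trim Galore 0.6.5 and Bismark 0.22.3, with the build GRCm38. How reads were counted is not given in the sources used here. Directional libraries were made per the labels' protocols and read as single ends of 50 bases.

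Log2 values were tested, two-sided, with limma 3.58.1 in R 4.3.3 (intensity trend, robust variances), with group as the only term and all 14 libraries in 1 fit. The test had been left to depend on the unit, and the form for log values was used. The 14980 genes that reached 0.5 RPM in 3 or more libraries were tested, and p-values were adjusted over all of them by Benjamini-Hochberg. The procedure was tested on simulated data. Levels are means ± SD of linear RPM with 0 reads taken as 0, and each log2 fold change is the difference between group means of log2 values, with its SE, and understates changes of genes near 0. Depth sets the precision: 3 reads correspond to 0.22 RPM in 2i/L libraries, 0.23 RPM in MEKi/L libraries, 0.25 RPM after 24 and after 8 days of GSK3i/L and 0.33 RPM in S/L, and such limits cover counting error only. In the matched S/L and 8-day GSK3i/L libraries these figures rest on the approximated depth, from which low deposited values depart. In GSK3i/L replicate 3, 1 read of H19 stood at 0.18 RPM, beside 0.12 RPM from the approximated depth. All members were named in every comparison. From each other list at most 4 called genes with the largest changes in a comparison could be named. A gene so named could also be given in other comparisons. The members and lists were chosen with earlier results of these data known. Alternatives were other scalings, no filter, a pseudocount of 0.5, a 2-fold minimum, the variance model, the 2 groups compared alone, a replicate block, a transcript-length covariate and each library left out. Leaving out both MEKi/L replicate 1 and GSK3i/L replicate 1 was added after seeing the data.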

Additional observations from a re-analysis of the deposited data

How the results depend on the processing

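Of 936 recomputed log2 fold changes of members, 851 kept their direction and their side of the threshold, 29 lost the call, 16 gained it and 40 changed sign, 0 of the last where the main difference had passed. The lost calls were those of Ascl2 in 2i/L against S/L (kept in 9 of 16 alternatives) and at 24 against 8 days (8 of 16), Cd81 in 2i/L against GSK3i/L (9 of 17) and in GSK3i/L against S/L (16 of 17, lost with the 2-fold minimum), and Slc22a18 in MEKi/L against GSK3i/L (12 of 17). The number of members called stayed within 1.5 times in 6 comparisons. In GSK3i/L at 24 against 8 days it was 2, and it was 1 with no filter on low values, with only the 2 groups compared, with the replicate block, with the long-minus-short score as covariate and with MEKi/L replicate 1 and 8-day GSK3i/L replicate 1 (the doubted libraries) both left out, and 1 to 2 with single libraries left out. In each of these cases the lost call was that of Ascl2. The replicate block gave Ascl2 1.31 (adjusted p = 0.056) there. The replicate numbers were not taken to pair the samples: in 8 of 26 pairs of libraries with the same number the deviations correlated above 0.1 (r from −0.314 to 0.669), against a range of −0.591 to 0.394 in 52 pairs with different numbers. Where leaving out a library left a single 24-day library, that library was assumed to vary like the other groups.

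Changes of sign concerned small or noisy differences, and their cause was not tested. Leaving out single libraries gave −0.24 to 0.20 for Ascl2 in MEKi/L against S/L, −0.14 to 0.034 for Ascl2 in GSK3i/L against S/L, −0.30 to 0.021 for Slc22a18 in 2i/L against GSK3i/L and −0.0004 to 0.11 for Tssc4 in 2i/L against MEKi/L. In MEKi/L against GSK3i/L it gave −0.60 to 0.25 for H19, −0.082 to 0.35 for Cdkn1c, −0.18 to 0.26 for Ascl2 and −0.055 to 0.23 for Tssc4. At 24 against 8 days it gave −2.43 to 0.93 for H19, −0.41 to 0.089 for Cdkn1c and −0.28 to 0.011 for Tssc4. With both doubted libraries left out, Ascl2 was 0.034 in GSK3i/L against S/L and Slc22a18 0.021 in 2i/L against GSK3i/L, and in MEKi/L against GSK3i/L Cdkn1c was −0.21, Ascl2 −0.28 and Tssc4 −0.0125. Quantile normalization, median centring and trimmed mean scaling gave −0.19, −0.18 and −0.075 for Tssc4 in 2i/L against GSK3i/L. In MEKi/L against GSK3i/L they gave −0.087, −0.065 and −0.027 for Cdkn1c, −0.21, −0.17 and −0.13 for Ascl2, and −0.10, −0.11 and −0.076 for Tssc4. The first pair of these settings gave −0.086 and −0.071 for Tssc4 in 2i/L against MEKi/L. The score as covariate gave 0.079 for Tssc4 in 2i/L against S/L, −0.25 for H19 in 2i/L against GSK3i/L, −0.055 for Ascl2 in MEKi/L against GSK3i/L and 0.36 for H19 at 24 against 8 days.

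Over all tested genes, 33 of 117 recomputed numbers of calls moved by over 1.5 times. Calls in MEKi/L against S/L were 6118 and at least 3810 (2-fold minimum), and in GSK3i/L against S/L 4666 and at least 2678 (only the 2 groups), with 2800 without S/L replicate 1 and 2956 and 3073 without GSK3i/L replicates 1 and 2. They were 9521 in 2i/L against S/L, with 4666 under the score and 18090 with no filter, and 4171 in 2i/L against GSK3i/L, with 2461 under the 2-fold minimum and 13127 with no filter, 2578 and 2706 without 2i/L replicates 2 and 3, and 6738 with both doubted libraries left out. They were 1936 in 2i/L against MEKi/L, with 3962, 966 and 1014 without MEKi/L replicates 1, 2 and 3, 1194, 1034 and 1071 without 2i/L replicates 1, 2 and 3, and 5505 with both doubted libraries left out. They were 2670 in MEKi/L against GSK3i/L, with 1591 in the fit of the 2 groups and 4751 under the score. At 24 against 8 days they were 2616, with 149 in the fit of the 2 groups, 443 and 372 without 24-day replicates 2 and 3, 586, 1580 and 5885 without 8-day GSK3i/L replicates 1, 2 and 3, 1194 with the replicate block and 525 under the score. Depth limits H19, Ascl2 and Slc22a18 in S/L, which rest on few reads.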
